A study of Mus musculus with 6 samples.

Results

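Immediate early genes and heat shock genes were followed across sorted Shox2-/- and WT cells. The cells are described as sinoatrial node-like cardiomyocytes, a name that the markers given below do not establish. The set holds 42 gene symbols chosen by name as genes that react to dissociation and sorting. All 42 were found, as 42 of the 30631 genes listed for each library, and all 42 passed the filter on low values (a normalized count of at least 10 in at least 3 libraries), as did 17034 genes in all. The set comprised 8 heat shock genes and 34 others, which are called immediate early genes, or early genes, below. These 34 include growth arrest and stress genes, and how fast each gene responds was not examined.

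Immediate early genes are switched on within minutes of a stimulus, before new protein is made. Growth factor signals reach them through the ERK kinase cascade, serum response factor and CREB, and many encode short-lived transcription factors (FOS, JUN, EGR, KLF and NR4A proteins) or inhibitors that shut the response off again. Heat shock genes encode chaperones and are induced through heat shock factor when proteins misfold. Enzymatic dissociation and flow sorting of tissue, heart included, are known to induce many genes of both kinds.

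RNA came from mouse embryonic stem cell clones of the genotypes Shox2-/- and Shox2+/+ (labelled WT), which were grown on mouse embryonic fibroblast feeders. Hanging drops were used for differentiation, and cells at stage 7+1 days were sorted for the surface protein CD166. Each group had 3 libraries. The Shox2-/- libraries 1, 2 and 3 carry the title numbers Diff7, Diff8 and Diff9 and share the clone-like prefix J2. The WT libraries 1, 2 and 3 carry Diff9, Diff9 and Diff811 and have prefixes of their own, so that genotype and clone cannot be told apart. The labels leave unstated what the Diff numbers mean, how long dissociation and sorting took and how the allele was made. Nor do they tell whether each library had a culture of its own. The p-values below measure the spread between these libraries only, which may be technical.

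The depth was 13782017 to 31151471 recovered reads in Shox2-/- libraries and 13504683 to 34650564 in WT libraries. The targeted gene had 200.7, 548 and 373 normalized counts in Shox2-/- libraries 1, 2 and 3, against 89.6, 83.4 and 31.4 in WT libraries 1, 2 and 3 (log2 change 2.46, SE 0.50, limma adjusted p = 0.201). Shox2 reads were therefore higher in the libraries labelled Shox2-/-, and each direction given here compares labels. Alcam, the gene of CD166, was at 4176, 5312 and 4304 in the libraries labelled Shox2-/- and 6591, 6526 and 5841 in WT libraries (log2 change -0.47, SE 0.12, adjusted p = 0.242). All 8 cardiomyocyte markers looked for were detected in each library, and so were all 9 sinoatrial markers. Some were low, such as Vsnl1 at 4.44 in Shox2-/- library 3 and 5.5 in WT library 3. The markers of every other cell type looked for were also detected in each library, so detection does not identify the cells. WT libraries 1 and 2 were closely alike over the set: among the 37 genes with a mean of at least 100, their values differed by a median of 4.21% and by at most 24.7% (Hspb1).

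No gene of the set passed the test over all genes. In limma on log2(normalized count + 1), 0 of 42 were called at an adjusted p under 0.05, as were 0 of 17034 genes tested (0.0%), and the lowest adjusted p in the set was 0.183. At an unadjusted p under 0.05, 12 of 42 genes (28.6%) were lower in Shox2-/- libraries, where 7.23% of all tested genes were, and 1 of 42 was higher, where 6.92% were. The 3 Shox2-/- values all lay below the 3 WT values in 13 of 42 genes (10.8% of all tested genes), and all above them in 3 of 42 (12.8%). The median log2 change was -0.31 over the set and 0.01 over all tested genes. A log2 change below 0 was found for 33 of the 42 genes and for 48.2% of all tested genes. Of the 34 immediate early genes 30 were below 0, with a median of -0.37, and of the 8 heat shock genes 3 were, with a median of 0.12.

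**Figure D1:**
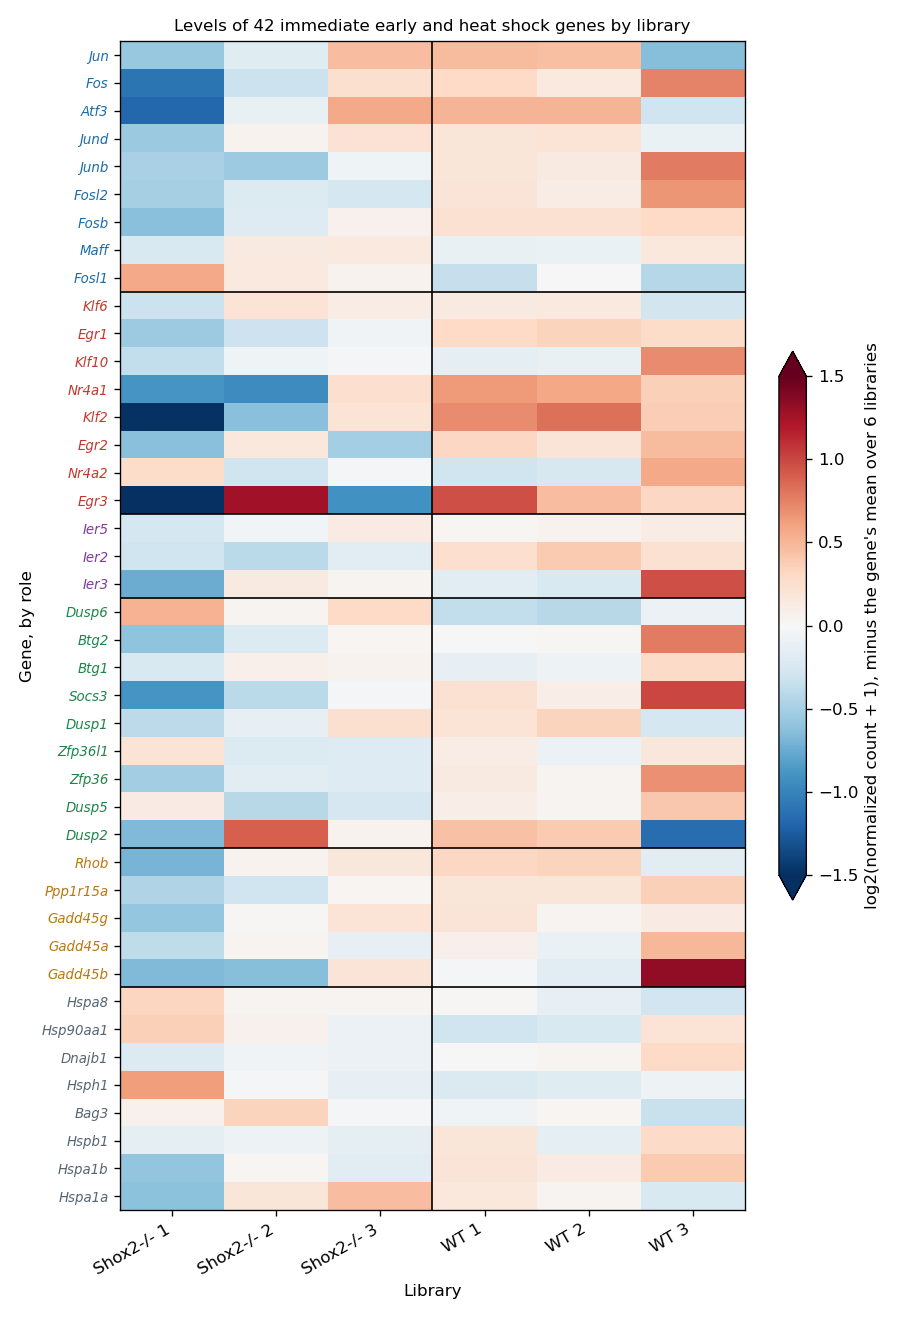
Heat map of the 42 genes (rows, grouped by role) in the 6 libraries (columns), coloured by log2(normalized count + 1) minus the gene's own mean over the libraries, with colours capped at the ends of the scale. Shox2-/- library 1 is the lowest of all libraries for 27 genes and WT library 3 the highest for 20.

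AP-1 is a dimer of a FOS and a JUN family protein, and 3 of the 4 FOS family genes had lower means in Shox2-/- libraries. Fos, the prototype immediate early gene (chr12:85473890-85477273, plus strand, GRCm38), had 1870, 3193 and 4721 normalized counts in Shox2-/- libraries 1, 2 and 3, against 4916, 4420 and 6712 in WT libraries 1, 2 and 3. The groups overlapped at Shox2-/- library 3, which lay between WT libraries 1 and 2. Its mean was 3261 ± 1427 in Shox2-/- and 5349 ± 1206 in WT libraries (SD, n = 3 each), a log2 change of -0.79 (SE 0.33, adjusted p = 0.342). Without Shox2-/- library 1 the log2 change of Fos was -0.44.

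Fosb, a FOS family member induced along with Fos, was at 458, 623 and 747 in Shox2-/- libraries and 832, 832 and 877 in WT libraries (log2 change -0.50, SE 0.18, adjusted p = 0.303). Fosl2, which encodes the FOS-related protein FRA-2, was at 789, 967 and 925 in Shox2-/- libraries and 1275, 1202 and 1770 in WT libraries (-0.65, SE 0.17, adjusted p = 0.240). For both genes the 3 Shox2-/- libraries lay below all WT libraries. The log2 change of Fosb was -0.31 without Shox2-/- library 1. Fosl1, which encodes FRA-1, ran the other way at a low level, with 45.0, 33.1 and 31.1 in Shox2-/- libraries and 23.2, 29.98 and 22.0 in WT libraries. These stood for 26, 37 and 42 reads in Shox2-/- libraries and 14, 46 and 28 in WT libraries, and 57.2% of the Fosl1 exon bases are shared with Ccdc85b on the other strand, so that its reads cannot be assigned with certainty.

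Among the JUN family, Junb was the member with separated groups. It was at 849, 814 and 1134 in Shox2-/- libraries and 1348, 1309 and 2050 in WT libraries (log2 change -0.73, SE 0.21, adjusted p = 0.253), with WT library 3 1.52 times the next highest. Jun, the main partner of FOS, split each group: it was at 3033, 3952 and 6184 in Shox2-/- libraries and 6241, 6115 and 2874 in WT libraries. The high values were those of Shox2-/- library 3 and WT libraries 1 and 2, and the low ones those of Shox2-/- libraries 1 and 2 and WT library 3. Atf3, a stress-induced bZIP repressor, was similarly divided, at 888, 1864 and 2997 in Shox2-/- libraries and 2881, 2862 and 1639 in WT libraries. Jund, which is less inducible than its relatives, averaged 1660 ± 436 in Shox2-/- and 1856 ± 209 in WT libraries (SD, n = 3 each). On the other strand, exons of Gm11175 share 52.6% of the Jund exon bases, those of Prdx2 7.52% of Junb and those of Junos 7.28% of Jun, so that without strand these values may hold reads of both genes. The small Maf gene Maff averaged 568 ± 79.7 in Shox2-/- and 551 ± 60.3 in WT libraries (SD, n = 3 each).

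The EGR zinc finger factors are direct targets of ERK signalling through serum response factor. Egr1 was at 1230, 1445 and 1726 in Shox2-/- libraries and 2211, 2263 and 2176 in WT libraries. All 3 Shox2-/- values lay below the narrow WT range. Its means were 1467 ± 249 in Shox2-/- and 2217 ± 43.6 in WT libraries (SD, n = 3 each), a log2 change of -0.61 (SE 0.14, 95% interval -0.93 to -0.29, adjusted p = 0.214). Egr2 was at 145, 251 and 157 in Shox2-/- libraries and 279, 258 and 312 in WT libraries (-0.65, SE 0.23, adjusted p = 0.303), with Shox2-/- library 2 just below the lowest WT value. Egr3 was close to the limit of detection, at 1.73, 26.8 and 5.18 in Shox2-/- libraries and 21.6, 14.99 and 13.3 in WT libraries, and its value in Shox2-/- library 1 was 1 read.

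Apart from the scarce Egr3, the widest differences of the set were those of Klf2 and Nr4a1. Klf2, a Krüppel-like factor best known as a shear-stress-responsive factor of endothelium (chr8:72319033-72321656, plus strand), was at 76.1, 138 and 247 in Shox2-/- libraries and 350, 379 and 277 in WT libraries. The Shox2-/- mean was 45.7% of the WT mean (log2 change -1.27, SE 0.40, 95% interval -2.20 to -0.34, adjusted p = 0.278). Nr4a1, an orphan nuclear receptor that is itself an early gene, was at 310, 298 and 682 in Shox2-/- libraries and 898, 862 and 737 in WT libraries, a Shox2-/- mean of 51.6% of the WT mean (-1.06, SE 0.31, adjusted p = 0.260). In both genes Shox2-/- library 3 came close to the lowest WT library and libraries 1 and 2 lay far below it. Without Shox2-/- library 1 the log2 change of Klf2 was -0.85.

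The other factors of this class did not separate the groups. Klf6, the gene with the highest level per kilobase of the set, was at 8036, 11527 and 10856 in Shox2-/- libraries and 11019, 11082 and 8272 in WT libraries. Its lowest values were those of Shox2-/- library 1 and WT library 3. Klf10, a target of TGF-beta signalling, was at 1102, 1360 and 1413 in Shox2-/- libraries and 1291, 1322 and 2323 in WT libraries, where WT library 3 was 1.64 times the next highest. Nr4a2, a relative of Nr4a1, averaged 103 ± 20.8 in Shox2-/- and 107 ± 39.0 in WT libraries (SD, n = 3 each).

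Of the IER genes, named for their immediate early response, Ier2 (chr8:84661331-84662852, minus strand) had the lowest p of the set. It was at 1528, 1411 and 1663 in Shox2-/- libraries and 2239, 2467 and 2194 in WT libraries. The groups were far apart against their spread, with means of 1534 ± 126 in Shox2-/- and 2300.1 ± 146 in WT libraries (SD, n = 3 each) and a log2 change of -0.59 (SE 0.11, 95% interval -0.83 to -0.34, adjusted p = 0.183). Ier5, an early gene tied to heat shock factor activity, was at 1612, 1874 and 2104 in Shox2-/- libraries and 1973, 1998 and 2085 in WT libraries, which overlapped. Ier3, an inhibitor of apoptosis, was at 149, 274 and 257 in Shox2-/- libraries and 221, 212 and 489 in WT libraries, with WT library 3 1.78 times the next highest.

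**Figure D2:**
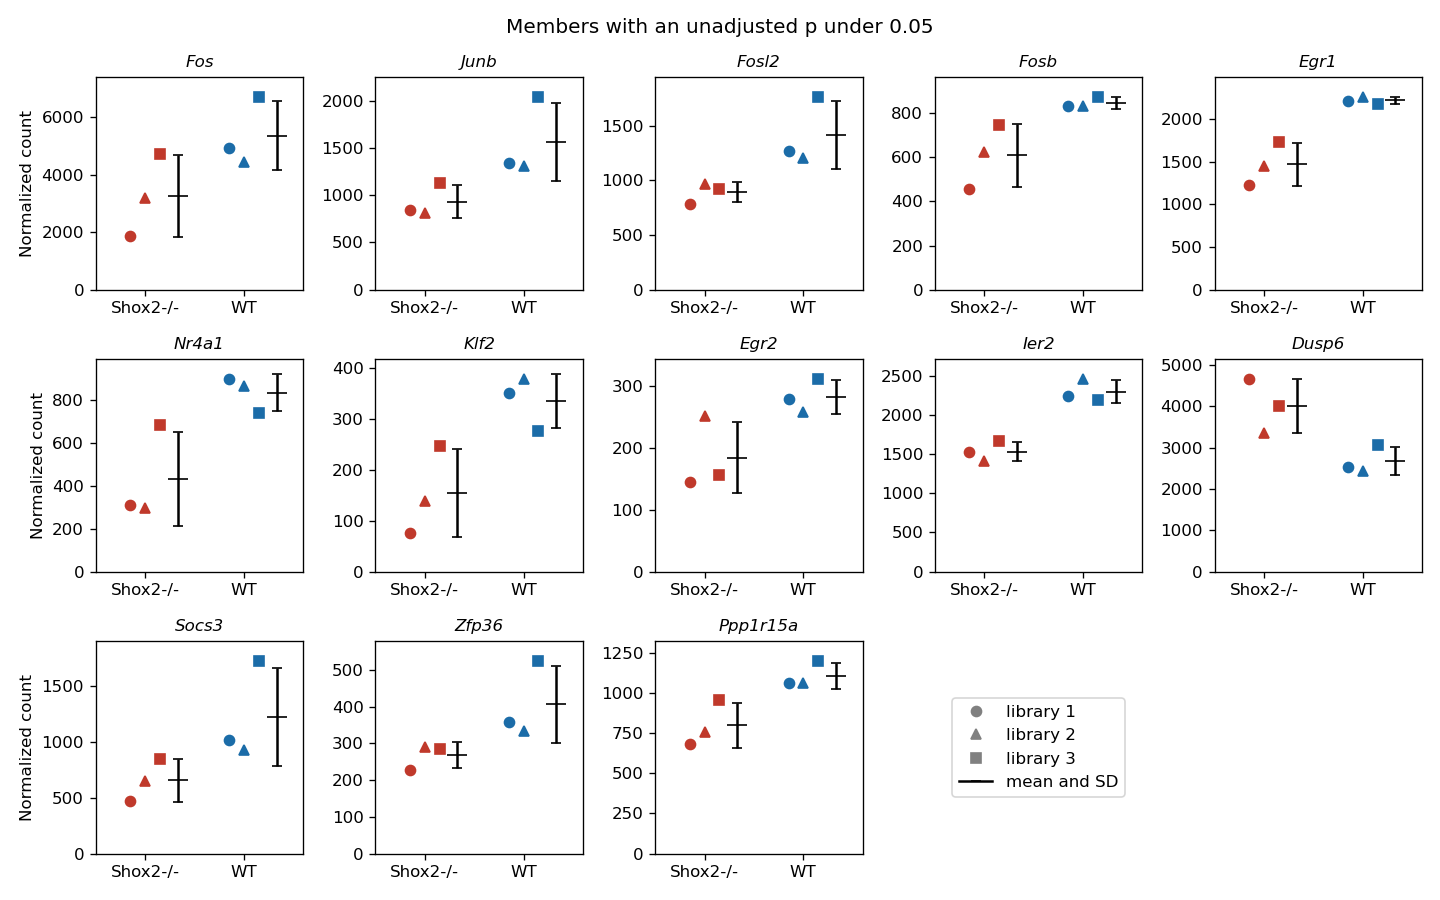
Normalized counts of the 13 genes with an unadjusted p under 0.05, by library, Shox2-/- in red and WT in blue, with mean and SD of 3 libraries in black and each axis starting at 0. In 12 of them the Shox2-/- mean is the lower one, at 45.7% to 72.0% of the WT mean, and in Dusp6 it is the higher one.

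The genes that shut the early response off did not move as one. Dusp6, which encodes the cytoplasmic phosphatase of ERK and is a standard readout of ERK activity (chr10:99263231-99267489, plus strand), was at 4675, 3356 and 4002 in Shox2-/- libraries and 2521, 2445 and 3059 in WT libraries. It was the member with an unadjusted p under 0.05 in the opposite direction, with means of 4011 ± 659 in Shox2-/- and 2675 ± 335 in WT libraries (SD, n = 3 each) and a log2 change of 0.58 (SE 0.15, 95% interval 0.22 to 0.93, adjusted p = 0.238). All 3 Shox2-/- values lay above all WT values.

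Among the other phosphatases, Dusp1, which acts on stress kinases in the nucleus, averaged 396 ± 87.4 in Shox2-/- and 450 ± 92.0 in WT libraries (SD, n = 3 each). Dusp5, a nuclear ERK phosphatase with 22.1% of its exon bases shared with AC137853.2 on the other strand, averaged 282 ± 55.6 in Shox2-/- and 362 ± 50.7 in WT libraries (SD, n = 3 each). Dusp2 was low, at 31.1, 93.9 and 51.9 in Shox2-/- libraries and 68.1, 65.8 and 22.0 in WT libraries. None of these 3 separated the groups.

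Socs3, the cytokine-induced inhibitor of JAK kinases, was at 467, 651 and 847 in Shox2-/- libraries and 1014, 927 and 1727 in WT libraries (log2 change -0.88, SE 0.29, adjusted p = 0.287). Zfp36, which encodes the mRNA decay factor tristetraprolin, was at 227, 291 and 285 in Shox2-/- libraries and 359, 335 and 526 in WT libraries (-0.58, SE 0.21, adjusted p = 0.303). Both had separated groups, and in both WT library 3 stood above the other WT libraries. Without WT library 3 the log2 change was -0.61 for Socs3 and -0.38 for Zfp36. Btg2, an antiproliferative cofactor of mRNA deadenylation, was at 1952, 2583 and 3029 in Shox2-/- libraries and 2963, 3015 and 5092 in WT libraries, which met at Shox2-/- library 3. Its relative Btg1 averaged 1235 ± 141 in Shox2-/- and 1293 ± 208 in WT libraries (SD, n = 3 each). Zfp36l1, the relative of Zfp36, averaged 380.3 ± 64.7 in Shox2-/- and 412 ± 37.2 in WT libraries (SD, n = 3 each), and 55.9% of its exon bases are shared with Gm26669 on the other strand.

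Of the growth arrest and stress genes, Ppp1r15a separated the groups. It encodes GADD34, the phosphatase subunit that restores translation after stress, and was at 682, 757 and 955 in Shox2-/- libraries and 1061, 1061 and 1202 in WT libraries (log2 change -0.49, SE 0.15, adjusted p = 0.271). Rhob, an inducible small GTPase, was at 1946, 3264 and 3557 in Shox2-/- libraries and 3894, 3959 and 2803 in WT libraries. Its lowest values belonged to Shox2-/- library 1 and WT library 3.

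The GADD45 proteins bind stress kinases and cell cycle proteins. Gadd45b was at 104, 105 and 188 in Shox2-/- libraries and 161, 146 and 415 in WT libraries, where WT library 3 was 2.20 times the next highest. Gadd45g was at 311, 474 and 537 in Shox2-/- libraries and 536, 479 and 509 in WT libraries, with Shox2-/- library 1 apart from the other 5. Gadd45a averaged 215 ± 31.3 in Shox2-/- and 269 ± 59.0 in WT libraries (SD, n = 3 each), and shares 19.1% of its exon bases with E230016M11Rik on the other strand.

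**Figure D3:**
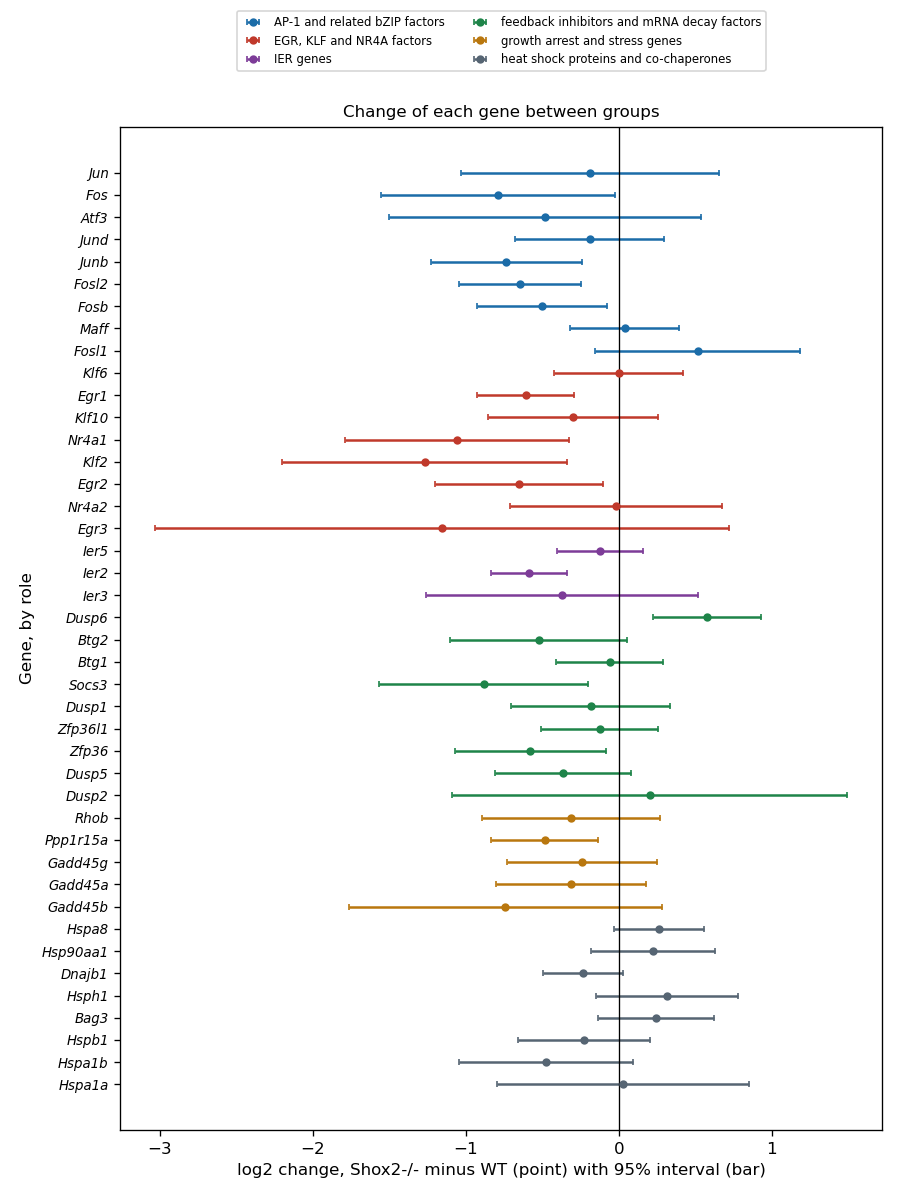
Log2 change between Shox2-/- and WT (points) with its 95% interval (bars) for the 42 genes, coloured by role; values below 0 are lower in Shox2-/-. The intervals of 12 immediate early genes lie wholly below 0, that of Dusp6 lies wholly above 0, and those of all 8 heat shock genes include 0.

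The heat shock genes showed no common direction. Hspa8, the constitutive HSP70 of the cytosol, was at 7841, 6467 and 6474 in Shox2-/- libraries and 6353, 5784 and 5148 in WT libraries, and the groups did not overlap. Hsp90aa1, the inducible cytosolic HSP90, was at 6095, 4958 and 4471 in Shox2-/- libraries and 3862, 4040 and 5458 in WT libraries. Hsph1, the large HSP110 that recycles nucleotide on HSP70, was at 3042, 1932 and 1804 in Shox2-/- libraries and 1691, 1738 and 1872 in WT libraries. In all 3 genes Shox2-/- library 1 was the highest library, and for Hsph1 it was 1.57 times the next highest.

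The remaining chaperone genes stayed within or near the spread between libraries. Dnajb1, the HSP40 that is a sensitive target of heat shock factor, averaged 1860.2 ± 99.6 in Shox2-/- and 2193 ± 241 in WT libraries (SD, n = 3 each), with no overlap between groups. Bag3, the co-chaperone that links HSP70 to selective autophagy in muscle, averaged 434 ± 57.7 in Shox2-/- and 366 ± 47.3 in WT libraries (SD, n = 3 each). Hspb1, which encodes the small heat shock protein HSP27, averaged 128 ± 3.05 in Shox2-/- and 151 ± 22.0 in WT libraries (SD, n = 3 each). The unadjusted limma p of these 8 genes ran from 0.0716 for Hspa8 to 0.945 for Hspa1a.

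Hspa1b and Hspa1a, the strictly inducible HSP70 pair, were at the bottom of the chaperones. Hspa1b was at 46.7, 72.4 and 63.7 in Shox2-/- libraries and 81.3, 77.6 and 93.4 in WT libraries, which stood for 27, 81 and 86 reads in Shox2-/- and 49, 119 and 119 reads in WT libraries. Hspa1a was at 19.0, 34.0 and 41.5 in Shox2-/- libraries and 33.2, 30.6 and 25.1 in WT libraries. The pair share 58.8% of the 50-base words of the Hspa1a transcripts, so that how reads were divided between them, or dropped, depends on the authors' counting, and both values are uncertain.

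Short promoter stretches are shown for some of the genes that hold a match to the sequence of a known response element. Whether a match acts in the gene shown was not tested. RefSeq promoters (GRCm38.p6) were found for 35 of the 42 genes. Ier2, Egr1, Hspa8, Hsp90aa1, Klf10, Egr3 and Fosl1 had none, so whether they hold these motifs was not examined. In the others, the 250 bases before the start site were searched for 3 motifs that read the same on both strands. Only exact matches were counted. Variant sites and sites further upstream were not looked for, so a gene without a match, Fos included, may still hold such a site. The CArG box, which serum response factor binds, was in 3 of 35 genes (8.57%) and in 1.62% of all 27025 genes with a promoter sequence. It lay at chr10:67537469-67537528 on the plus strand for Egr2, chr7:28379252-28379311 on the minus strand for Zfp36 and chr19:53529043-53529102 on the plus strand for Dusp5, which holds a pair of them (capitals mark the box, 5′ to 3′):
Egr2: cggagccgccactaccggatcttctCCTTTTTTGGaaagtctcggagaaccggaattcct
Zfp36: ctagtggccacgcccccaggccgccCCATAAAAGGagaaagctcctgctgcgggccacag
Dusp5: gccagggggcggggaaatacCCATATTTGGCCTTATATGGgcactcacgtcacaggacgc
Egr2 and Zfp36 were lower in all Shox2-/- libraries than in any WT library, and Dusp5 overlapped.

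The cyclic AMP response element TGACGTCA, which CREB binds, was in 4 of 35 genes (11.4%) and in 1.77% of all genes with a promoter. It lay at chr7:45526269-45526328 (minus strand) for Ppp1r15a, chr17:26508582-26508641 (minus strand) for Dusp1, chr1:134079288-134079347 (minus strand) for Btg2 and chr15:79347460-79347519 (plus strand) for Maff (capitals mark the element):
Ppp1r15a: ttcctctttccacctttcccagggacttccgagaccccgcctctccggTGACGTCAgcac
Dusp1: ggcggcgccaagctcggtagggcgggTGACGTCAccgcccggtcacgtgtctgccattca
Btg2: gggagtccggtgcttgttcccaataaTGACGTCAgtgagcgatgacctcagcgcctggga
Maff: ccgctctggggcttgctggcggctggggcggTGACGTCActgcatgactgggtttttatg
Of these, Ppp1r15a separated the groups, and Dusp1, Btg2 and Maff did not.

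GAANNTTC, a pair of heat shock element units, was in 5 of 35 genes (14.3%) and in 7.73% of all genes with a promoter. The 5 were the chaperone genes Hspa1a, Hspa1b and Hspb1, the last with 2 copies, and the AP-1 genes Fosl2 and Jun. Within these 250 bases, no gene of the 35 held more than 1 of the 3 motifs. For Hspa1b (chr17:34959309-34959368, minus strand) and Hspa1a (chr17:34972227-34972286, minus strand) the stretch around it was the same, and 247 of the 250 upstream bases of the pair were equal at the same position (capitals mark the motif):
Hspa1b: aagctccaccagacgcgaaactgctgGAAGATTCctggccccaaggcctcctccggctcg
Hspa1a: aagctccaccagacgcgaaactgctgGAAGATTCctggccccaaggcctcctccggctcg
Hspa1b was lower in each Shox2-/- library than in any WT library, while Hspa1a overlapped. The gap for Hspa1b was narrow, with 72.4 in Shox2-/- library 2 against 77.6 in WT library 2. How reads were divided between the pair is uncertain, as given above, so these values do not show that the genes behaved differently. The part of the upstream sequence in these values was not tested.

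The difference in the early genes had another size among the libraries titled Diff9 than among the rest. Of the Diff9 libraries, Shox2-/- library 3 can be set against WT libraries 1 and 2. The rest, Shox2-/- libraries 1 and 2 (Diff7 and Diff8) and WT library 3 (Diff811), share no title number. These sets hold 1 library on a side, so the values have no test. In the Diff9 set the median log2 difference of the 34 early genes was -0.07, with 19 of 34 below 0, and 46.9% of all tested genes were below 0 there. In the other set it was -0.62, with 28 of 34 below 0 (49.4% of all tested genes).

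Several early genes were level within the Diff9 set. There the log2 difference of Fos was 0.02, of Jun 0.001, of Btg2 0.02 and of Atf3 0.06. In the other set that of Fos was -1.46, of Jun 0.27, of Btg2 -1.18 and of Atf3 -0.35. Gadd45b stood at 0.29 in the Diff9 set and -1.98 in the other. Ier2 kept its size, at -0.50 in the Diff9 set and -0.58 in the other. Egr2 did so as well, at -0.77 in the Diff9 set and -0.71 in the other. Egr1 was at -0.37 in the Diff9 set and -0.71 in the other. Klf2 was at -0.56 in the Diff9 set and -1.43 in the other, and Dusp6 at 0.69 in the Diff9 set and 0.37 in the other.

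**Figure D4:**
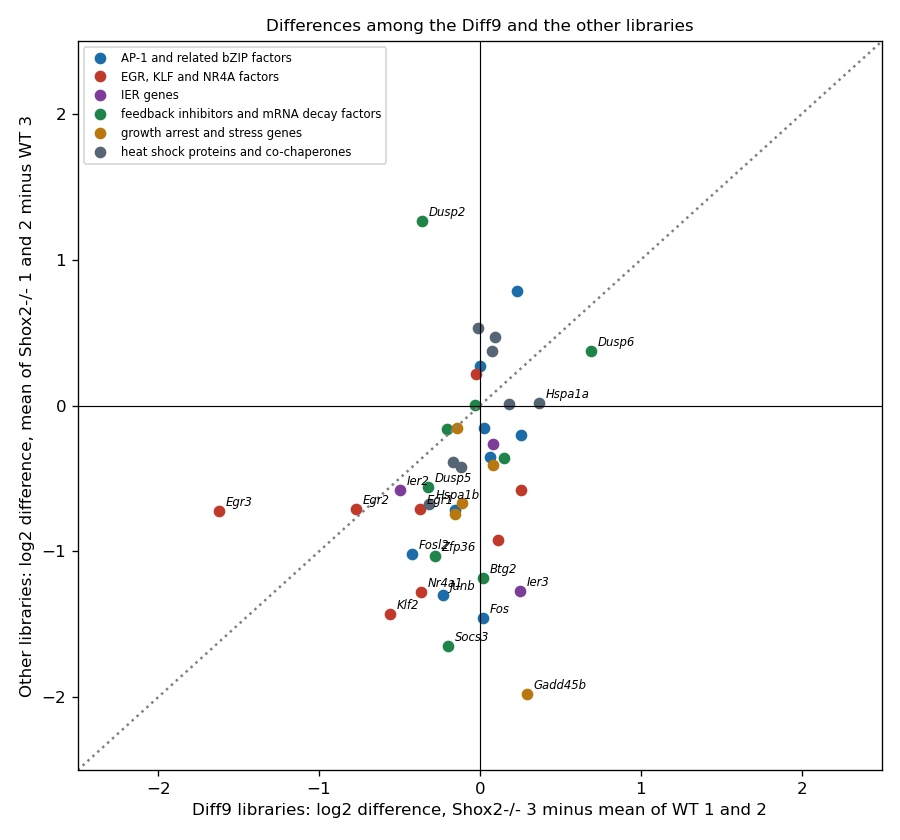
Each point is 1 of the 42 genes, coloured by role, with the log2 difference between Shox2-/- library 3 and the mean of WT libraries 1 and 2 on the x axis and that between the mean of Shox2-/- libraries 1 and 2 and WT library 3 on the y axis; the dotted line marks equal differences. Of the 42 genes, 19 are below 0 on both axes (27.7% of all tested genes) and 7 are above 0 on both (31.5% of all tested genes).

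Single libraries were often at the ends of the range. Shox2-/- library 1 was the lowest of the 6 for 24 of the 34 early genes (70.6%), where it was the lowest for 23.0% of all tested genes. WT library 3 was the highest for 17 of the 34, where it was so for 25.5% of all tested genes. Over all tested genes these libraries also lay often at the other end, Shox2-/- library 1 as the highest for 24.97% and WT library 3 as the lowest for 26.6%. Of the 8 heat shock genes, Shox2-/- library 1 was the lowest for 3 and the highest for 3. The median early gene lay -0.53 from its own mean over the 6 libraries in Shox2-/- library 1, -0.14 in library 2 and 0.06 in library 3 (log2 scale). In WT libraries 1, 2 and 3 it lay at 0.18, 0.12 and 0.30. By this median, Shox2-/- library 3 came nearest to WT among the Shox2-/- libraries.

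Levels between genes were compared per kilobase of annotated exon and ordered by the mean over all 6 libraries. Klf6 led with 2309 normalized counts per kilobase in Shox2-/- and 2306 in WT libraries, followed by Fos with 1387 in Shox2-/- and 2274 in WT libraries. Jun, Hspa8, Rhob, Ier2, Hsp90aa1, Btg2, Dusp6, Jund and Atf3 followed, down to Atf3 with 889.5 in Shox2-/- and 1142 in WT libraries. In 40 of the 41 pairs of neighbours in this order the ranges over the 6 libraries overlapped, Hspa1a and Egr3 being the exception. At the lower end, Hspa1a had 10.6 in Shox2-/- and 9.99 in WT libraries, and Egr3 2.55 in Shox2-/- and 3.78 in WT libraries.

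**Figure D5:**
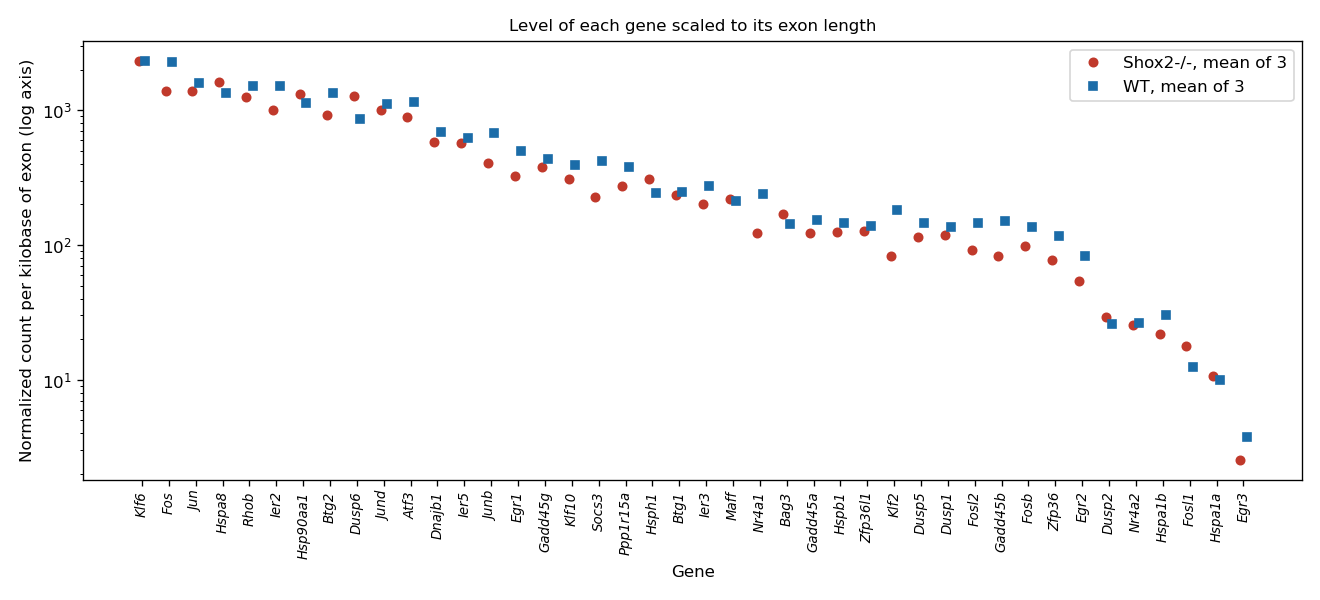
Mean normalized count per kilobase of exon for each of the 42 genes (log axis), ordered by the mean over all 6 libraries, with Shox2-/- as red circles and WT as blue squares (n = 3 libraries each). The genes span from Klf6 at 2307 down to Egr3 at 3.16 per kilobase over all libraries.

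Other genes of the same pathways were read from a further list of 66 genes found in the files, 65 of which were tested. None was called at an adjusted p under 0.05 in limma. At an unadjusted p under 0.05, 9 of 65 were lower in Shox2-/- libraries (13.8%, against 7.23% of all tested genes) and 7 were higher (6.92% of all tested genes). The median log2 change was 0.06. Of the 27 further early response genes 6 were lower and 3 higher, of the 14 upstream regulators 1 was lower and 3 higher, and of the 24 further heat shock network genes 2 were lower and 1 higher.

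Of these genes, Dusp4 and Spry2 had the lowest p, and both were higher in Shox2-/- libraries. Dusp4, a nuclear ERK phosphatase, was at 2747, 2157 and 2151 in Shox2-/- libraries and 1246, 1238 and 1538 in WT libraries, with no overlap (log2 change 0.81, SE 0.14, adjusted p = 0.182). Spry2, a Sprouty inhibitor of receptor tyrosine kinase signalling, was at 3875, 1459 and 3608 in Shox2-/- libraries and 866, 852 and 1243 in WT libraries (1.49, SE 0.37, adjusted p = 0.227). Spry2 lies on chromosome 14, where 14 of the 17 tested genes that start within 5 Mb of it were also higher and 11 had an unadjusted p under 0.05, so its difference is not separate from that of its neighbourhood. Spry4 and Errfi1, named after their values were seen, overlapped between groups. Spry4, another Sprouty gene, was at 349, 181 and 221 in Shox2-/- libraries and 138, 128 and 259 in WT libraries. Errfi1, an inhibitor of the EGF receptor, was at 1344, 1588 and 1384 in Shox2-/- libraries and 1480.5, 1515 and 1912 in WT libraries. Dusp10, a phosphatase of stress kinases, ran opposite to Dusp4, at 138, 204 and 254 in Shox2-/- libraries and 304, 307 and 554 in WT libraries (-0.95, SE 0.31, adjusted p = 0.287). Without WT library 3 its log2 change was -0.66.

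Ternary complex factors carry the ERK signal to serum response factor, and members of this family differed in direction. Elk3 was at 1043, 1057 and 1190 in Shox2-/- libraries and 803, 819 and 906 in WT libraries (log2 change 0.38, SE 0.11, adjusted p = 0.257). Elk4 was at 1111, 877 and 1132 in Shox2-/- libraries and 1291, 1333 and 1524 in WT libraries (-0.42, SE 0.14, adjusted p = 0.287). In neither gene did the groups overlap. Elk1, also of this family, was named after its values were seen. It was at 606, 591 and 620 in Shox2-/- libraries and 601, 512 and 446 in WT libraries, which overlapped. Of the 14 upstream regulators, 1 had a log2 change below 0, where 48.2% of all tested genes did. Srf, the gene of serum response factor, was named after its values were seen. It was at 2389, 2190 and 2588 in Shox2-/- libraries and 2300, 2202 and 1740 in WT libraries, which overlapped.

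Of the further early genes, Per1, a clock gene induced through CREB, was at 202, 164 and 267 in Shox2-/- libraries and 413, 394 and 302 in WT libraries (log2 change -0.82, SE 0.22, adjusted p = 0.249). Tob1, an antiproliferative relative of Btg2, was at 644, 733 and 558 in Shox2-/- libraries and 456, 471 and 497 in WT libraries (0.43, SE 0.14, adjusted p = 0.284). Stip1, the co-chaperone that joins HSP70 to HSP90, was at 7097, 5534 and 5097 in Shox2-/- libraries and 4490, 4511 and 4555 in WT libraries (0.37, SE 0.13, adjusted p = 0.303). Its log2 change was 0.23 without Shox2-/- library 1, which was the highest library.

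Summed normalized counts of cell type markers are given beside the early genes. The sum of 9 mesenchyme and fibroblast markers was 176402 to 278764 in Shox2-/- libraries and 373245 to 596094 in WT libraries, and it was lowest in Shox2-/- library 1 and highest in WT library 3; 5 of the 8 tested were lower at an unadjusted p under 0.05. The collagen gene Col3a1 was the largest member of the sum in each library, at 111600.5, 106540.0 and 177188 in Shox2-/- libraries and 221716, 217111 and 333969 in WT libraries. Pdgfra, a receptor of mesenchymal cells, ran otherwise, at 14844, 11397 and 11616 in Shox2-/- libraries and 14484.5, 14659 and 8389 in WT libraries, and Postn overlapped between groups. The sum of 7 endothelial markers was 8490 to 12977 in Shox2-/- libraries and 3885 to 14909 in WT libraries, with 1 of 7 lower. That of 8 cardiomyocyte markers was 8912 to 28628 in Shox2-/- libraries and 7260 to 24577 in WT libraries, lowest within each group in Shox2-/- library 1 and WT library 3, with 0 of 8 past that p. That of 9 sinoatrial markers was 3724 to 4189 in Shox2-/- libraries and 3627 to 7300 in WT libraries, with 2 lower and 2 higher. Col3a1 alone exceeded the cardiomyocyte sum and the sinoatrial sum in each library. The sum of 10 epithelial and endodermal markers was 4948 to 15550 in Shox2-/- libraries and 11931 to 14401 in WT libraries, with 4 of 10 lower.

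Klf2 and the endothelial sum were both lowest within their groups in Shox2-/- library 1 and WT library 3. Between groups their orders differed. The sum was lowest of all in WT library 3, where Klf2, at 277, lay above all Shox2-/- values. Kdr was the largest member of the sum in each library, at 6886 of 8490 in Shox2-/- library 1 and 2518 of 3885 in WT library 3. The marker genes named here and above were picked after their values were seen. Cdh5, the gene of VE-cadherin and an endothelial marker, was at 31.1, 153 and 156 in Shox2-/- libraries and 317, 308 and 45.5 in WT libraries. Emcn, another endothelial marker, was at 22.5, 51.8 and 56.3 in Shox2-/- libraries and 109.5, 87.3 and 80.1 in WT libraries. Cdh5 and Emcn thus ordered WT library 3 and Shox2-/- library 2 differently. Of the markers looked for, 0 were at 0 in all libraries. Mitochondrially encoded genes took 1.65%, 1.03% and 0.937% of the values in Shox2-/- libraries 1, 2 and 3 and 0.940%, 1.12% and 1.69% in WT libraries 1, 2 and 3. The part of these markers in the differences of the early genes was not tested. In bulk RNA, fewer cells of a type and less RNA per cell cannot be told apart.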

How the data were processed

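For each library the authors deposited 1 file that lists 30631 genes by Ensembl ID and symbol, with a normalized value per gene. The submitters' processing notes name CASAVA 1.8.2, BWA, HTSeq and DESeq2 1.14.0, in no stated role, and the genome build mm10. Whether counting was strand-specific is not given in the sources used here. As judged from the values, the deposited numbers are read counts divided by 1 factor per library: all of them (100%) were whole multiples of 1 step per library, within 0.1 reads. Library 1 of each group was the shallowest, so that low values there have the widest counting error.

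The analysis used log2(value + 1), a scale on which changes of low genes are understated. Genotype was the only term in limma 3.58.1 (R 4.3.3), fitted with moderated variances and a trend on mean level. P-values were two-sided and adjusted by Benjamini-Hochberg over the 17034 genes tested, and the fit was tested on simulated data. Limma voom was run on recovered reads as an alternative, and the planned edgeR and DESeq2 fits were not run. Exon lengths, overlaps and gene positions came from GENCODE M21 (GRCm38), and promoters from RefSeq. An exact permutation test of 3 against 3 libraries cannot go below p = 0.1 and was not used. The genes, lists and tests were chosen with earlier results of these data known. Values in each library are given for the 2 most abundant genes of each role, for genes with an unadjusted p under 0.05 and for genes with 1 library over 1.5 times from the next, and of the further pathway genes for the 8 with the lowest p. Alternatives covered the pseudocount, the filter, scaling, voom with and without sample weights, a block for the title number, WT libraries 1 and 2 as 1 sample, and each library left out.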

Additional observations from a re-analysis of the deposited data

How the results depend on the processing

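The counts of called genes depended on how libraries were weighted. With limma voom and sample quality weights, 303 genes were called over the whole table, among them 3 of the 42 genes (Dusp6, Egr1 and Ier2) and 3 of the other early and heat shock genes (Dusp4, Spry2 and Elk3), where the unweighted voom fit called 0. Those weights ran from 0.206 for WT library 3 to 4.22 for WT library 2. WT library 1 had 3.59, and the highest weight of a Shox2-/- library was 0.884, for library 3. The weighted calls thus leaned on WT libraries 1 and 2, which were closely alike and may not be independent. Without the filter on low values 2 genes were called. Leaving out each library in turn gave 0 to 51 called genes and 0 to 1 of the other early and heat shock genes (Spry2), the upper ends both without Shox2-/- library 2. The number of the 42 genes with an unadjusted p under 0.05 was 9 to 14 without each library in turn, and 10 with WT libraries 1 and 2 summed. It was lowest without Shox2-/- library 1, with 8 lower and 1 higher (4.78% and 3.95% of all tested genes). Without Shox2-/- library 2, 13 were lower and 1 higher (8.32% and 6.22% of all tested genes). With WT libraries 1 and 2 summed, 9 were lower and 1 higher (5.27% and 4.03% of all tested genes). The lowest limma adjusted p of the 42 genes was then 0.515. The median log2 change of the 42 genes stayed below 0 in all 16 alternatives, from -0.39 without Shox2-/- library 3 to -0.19 without Shox2-/- library 1. Scaling by upper quartiles moved the share of all tested genes at an unadjusted p under 0.05 to 9.38% lower and 4.50% higher in Shox2-/-, against 7.23% lower and 6.92% higher as deposited. The replicate numbers only name libraries and pair none. With a replicate block for the title number Diff9, 12 of the 42 genes had an unadjusted p under 0.05 and 0 were called. Of these 12, 11 were lower and 1 was higher, where 7.46% of all tested genes were lower and 7.39% higher. Of the 23 genes whose log2 change is printed from the fit, 0 changed sign under any alternative run. Most of the 23 were named for an unadjusted p under 0.05 in these same libraries, so their signs were likely to hold. Over all 42 genes, the number with a log2 change below 0 was 33 in the main limma fit. It ran from 29 without Shox2-/- library 1 to 35, reached for instance without Shox2-/- library 2. The planned edgeR and DESeq2 fits were not run. Depth limits Egr3, Hspa1a, Hspa1b, Fosl1 and Dusp2, which had at most 119 reads in any library.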
